A study of Mus musculus with 7 samples.

Results

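The 8 CXC chemokine genes Cxcl1, Cxcl2, Cxcl3, Cxcl5, Cxcl9, Cxcl10, Cxcl11 and Cxcl16 carried 33 of the 93611 regions over which RelA and RelB binding was measured in mouse dendritic cells. A region belonged to a gene when the deposited annotation named that gene and placed the region within 100 kb of its transcription start site (TSS). Cxcl5 had 12 regions, Cxcl1 had 6, Cxcl16 had 4, Cxcl10 and Cxcl11 had 3 each, Cxcl2 and Cxcl3 had 2 each, and Cxcl9 had 1. For Cxcl11 and Cxcl16 the distance runs to the start of a non-coding transcript assigned to that gene. The 33 regions comprised 20 intergenic regions, 8 promoter regions, 3 intronic regions, 1 in a 3' UTR and 1 in non-coding transcript sequence.

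All 7 libraries came from C57BL/6 bone marrow cells cultured with GM-CSF and IL-4 into dendritic cells (BMDCs). The groups were wild-type (WT) cells without treatment with RelB ChIP at 0 h, WT cells after 1 h of LPS at 10 ng/mL with RelB ChIP and with RelA ChIP, RelBko cells without treatment with RelB ChIP at 0 h, RelBko cells after 1 h of LPS with RelB ChIP and with RelA ChIP, and WT input DNA for which the labels give no time. Each group was 1 library, so no difference below has a replicate check. The treatment text lists a CpG oligonucleotide product beside LPS, and the stimulus is called LPS here. The labels do not say how many animals a culture came from or how Relb was disrupted. ChIP signal does not measure expression, so the dendritic cell label could not be checked against marker transcripts here.

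CXC chemokines are small secreted proteins that recruit leukocytes through G protein-coupled receptors. Cxcl1, Cxcl2, Cxcl3 and Cxcl5 encode chemokines with a glutamate-leucine-arginine motif that attract neutrophils through CXCR2, and Cxcl1 and Cxcl2 are classical early NF-kB targets in LPS-treated myeloid cells. Cxcl9, Cxcl10 and Cxcl11 encode the interferon-inducible ligands of CXCR3, which bring activated T cells and NK cells to dendritic cells; in C57BL/6 mice Cxcl11 carries a frameshift and gives no functional chemokine. Cxcl16 encodes a membrane-bound chemokine that binds CXCR6 on T and NKT cells and also acts as a scavenger receptor. RelA is the NF-kB subunit that enters the nucleus within minutes of LPS, whereas RelB is best known from the noncanonical pathway and from dendritic cell maturation, and both bind kB sites as dimers with other family members.

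The promoters of 5 members were found in a RefSeq table of the later build GRCm38.p6 and are shown because the deposited promoter regions lie over them. Each is the 250 bases before the annotated TSS, 5′ to 3′ on the strand of the gene. Capitals mark matches on either strand to the 10-base NF-kB consensus, to GGGAA and CC with any 3 bases between them, to the interferon-stimulated response element core GAAA, any 2 bases, GAAA, or to the AP-1 motif TGANTCA; matches to the first 2 motifs can overlap.
Cxcl1, chr5:90890995-90891244, plus strand: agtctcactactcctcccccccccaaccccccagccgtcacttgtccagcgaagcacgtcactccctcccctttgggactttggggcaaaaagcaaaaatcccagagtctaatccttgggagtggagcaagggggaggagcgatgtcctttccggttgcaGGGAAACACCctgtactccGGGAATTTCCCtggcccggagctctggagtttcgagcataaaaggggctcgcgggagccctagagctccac
Cxcl2, chr5:90903649-90903898, plus strand: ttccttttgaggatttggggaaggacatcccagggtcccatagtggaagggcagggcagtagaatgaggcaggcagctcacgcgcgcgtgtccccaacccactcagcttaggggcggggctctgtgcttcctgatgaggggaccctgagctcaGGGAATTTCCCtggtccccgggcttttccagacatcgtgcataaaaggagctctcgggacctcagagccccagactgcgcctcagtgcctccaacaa
Cxcl3, chr5:90785851-90786100, plus strand: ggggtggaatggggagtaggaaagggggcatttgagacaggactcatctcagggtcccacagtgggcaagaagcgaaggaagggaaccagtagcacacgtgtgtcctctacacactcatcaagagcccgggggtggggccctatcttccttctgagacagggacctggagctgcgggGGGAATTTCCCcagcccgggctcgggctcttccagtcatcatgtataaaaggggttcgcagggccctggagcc
Cxcl9, chr5:92328080-92328329, minus strand: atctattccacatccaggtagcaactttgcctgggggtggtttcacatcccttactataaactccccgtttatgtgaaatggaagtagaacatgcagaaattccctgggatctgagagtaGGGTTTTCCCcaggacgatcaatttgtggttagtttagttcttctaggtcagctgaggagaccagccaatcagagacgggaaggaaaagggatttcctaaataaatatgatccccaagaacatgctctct
Cxcl10, chr5:92348890-92349139, minus strand: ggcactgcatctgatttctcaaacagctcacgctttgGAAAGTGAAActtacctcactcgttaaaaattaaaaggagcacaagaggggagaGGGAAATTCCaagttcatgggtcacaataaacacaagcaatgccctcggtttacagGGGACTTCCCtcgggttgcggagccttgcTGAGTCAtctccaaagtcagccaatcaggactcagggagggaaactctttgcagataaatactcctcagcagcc

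Cxcl1, Cxcl2 and Cxcl3 shared the same 11-base element, GGGAATTTCCC, which matches the NF-kB consensus on both strands. It lay 71 to 61 bases before the TSS in Cxcl1, 97 to 87 in Cxcl2 and 73 to 63 in Cxcl3. Cxcl10 held 2 consensus matches, GGGAAATTCC at 159 to 150 and GGGACTTCCC at 103 to 94 bases before the TSS, together with a response element core at 213 to 204 and TGAGTCA at 74 to 68. Cxcl9 had no consensus match in this window and held GGGTTTTCCC, a match to the looser motif on the minus strand, at 130 to 121. The NF-kB consensus was present in 4 of these 5 promoters and in 3.90% of 32851 promoter windows of the same length. The looser motif was present in all 5 and in 4.94% of windows, the response element core in 1 and in 2.98%, and TGANTCA in 1 and in 6.75%. These matches describe letters and do not show which of them is bound.

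The WT libraries held 35064429 (RelB, 0 h), 28425471 (RelB, 1 h) and 17590435 reads (RelA, 1 h), the RelBko libraries 17485035, 19498468 and 23956299 reads in the same order, and the input 13188833 reads. Between 37.2% and 42.4% of reads fell in the regions in WT RelB and both RelA libraries, against 7.41% and 4.62% in the RelBko RelB libraries and 3.52% in the input. All levels below are in RPKM, which scales reads to the length of the region and the size of the library.

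Among chemokine regions, 29 of 33 were enriched over input for RelB in WT at 0 h, 30 for RelB at 1 h and 31 for RelA at 1 h, where enriched means at least 2 RPKM and at least 2-fold over input after adding 0.5 RPKM to both. Of all regions, 75.9%, 81.7% and 82% were enriched in these libraries. In RelBko, RelA was enriched at 29 of 33 regions, against 75.9% of all regions. Input signal at the 33 regions ran from 0.222 to 2.86 RPKM. The weakest position was the Cxcl5 promoter (chromosome 5, 91188088 to 91188425, 68 bp upstream of the TSS), with WT RelB at 0.759 and 1.14 RPKM (0 h, 1 h), RelA at 2.52 and 1.73 RPKM (WT, RelBko) and input at 0.673 RPKM. These values rest on 9, 11, 15, 14 and 3 reads, and only RelA in WT met the rule for enrichment at the Cxcl5 promoter.

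The strongest region of each gene, its lead region, separated the genes by level. In WT at 0 h, RelB signal ran in the order Cxcl16, Cxcl10, Cxcl9, Cxcl11, Cxcl5, Cxcl2, Cxcl3 and Cxcl1. Counting error did not separate Cxcl10 from Cxcl9, Cxcl9 from Cxcl11 or Cxcl2 from Cxcl3, and the other neighbours in that order were separated by it. The Cxcl16 lead region, intergenic and 8047 bp upstream of the TSS (chromosome 11, 70281361 to 70281705), ranked 16th of 93611 regions by mean ChIP signal. The plot of lead regions shows that all 3 CXCR3 ligands and Cxcl16 lay above the neutrophil attractants in both WT RelB libraries, while for RelA the Cxcl2 promoter reached the level of Cxcl11.

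**Figure D1:**
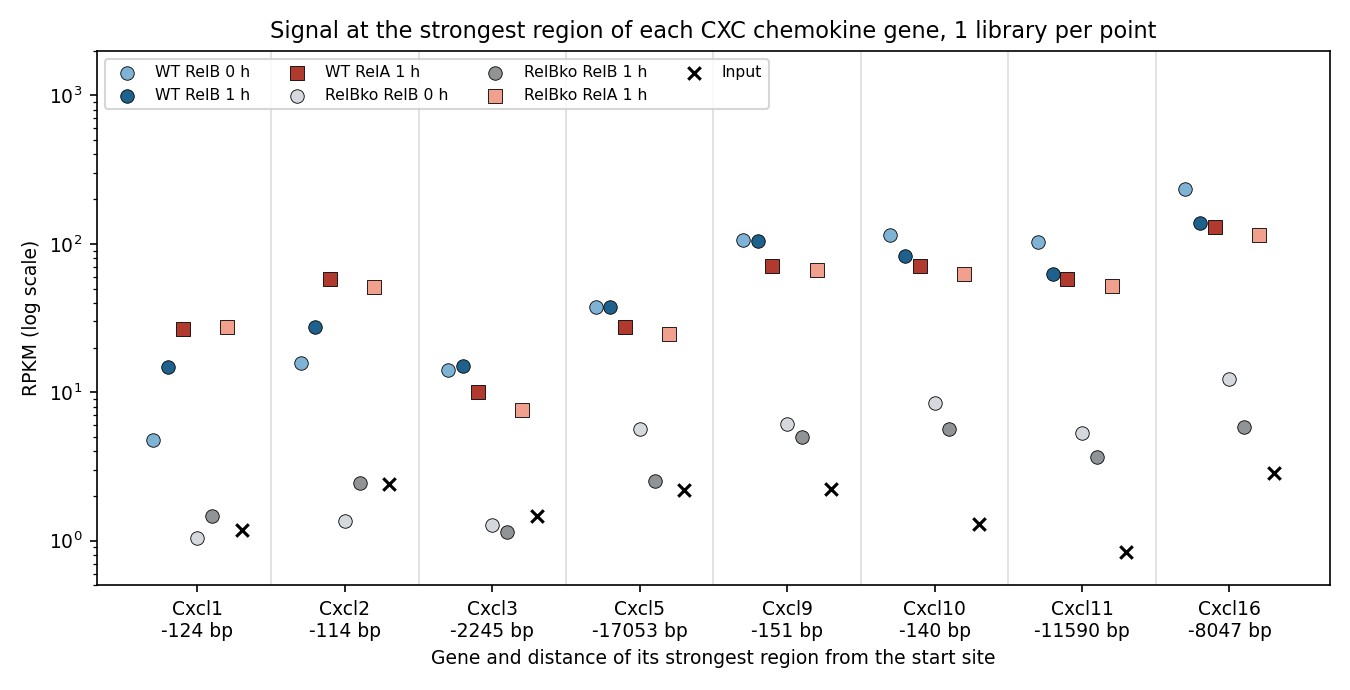
RPKM (log scale) at the region of highest mean ChIP signal of each gene, with its distance from the TSS; each point is 1 library, circles RelB, squares RelA, crosses input. RelB at 0 h runs from 4.74 RPKM at Cxcl1 to 234 RPKM at Cxcl16, and RelA in WT and RelBko lie close together at every gene.

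The Cxcl16 lead region was high for RelA in both genotypes (130 and 114 RPKM in WT and RelBko); RelB signal was 234 and 138 RPKM in WT before and after LPS, RelBko had 12.3 and 5.80 RPKM, and the input had 2.86 RPKM. It was the highest chemokine region in each ChIP library. At the TSS of Cxcl16 (70273199 to 70273552, 111 bp downstream), WT RelB signal was 67.1 and 52.6 RPKM before and after LPS, RelBko RelB signal 6.14 and 4.49 RPKM, and RelA signal 37.4 RPKM with and 44.1 RPKM without RelB.

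The Cxcl9 promoter region (chromosome 5, 92757088 to 92757425, 151 bp upstream) had WT RelB signal of 106 and 104 RPKM (0 h, 1 h), RelBko RelB signal of 6.09 and 5.01 RPKM, and RelA signal of 70.5 and 66.3 RPKM (WT, RelBko). RelB was thus as high before LPS as after it at this promoter, whose input value was 2.24 RPKM. The Cxcl10 promoter region (92777879 to 92778232, 140 bp upstream), which spans the paired kB matches printed above, had WT RelB signal of 114 and 83.0 RPKM, RelBko RelB signal of 8.40 and 5.65 RPKM, RelA signal of 71.0 and 63.1 RPKM, and 1.29 RPKM in the input. An adjoining Cxcl10 region 814 bp upstream (92778573 to 92778886) had 70.7 and 74.7 RPKM for RelB and 50.5 and 49.5 RPKM for RelA. Cxcl11 differed in that its promoter region, 80 bp upstream, was modest (24.9 and 18.7 RPKM for RelB, 15.7 and 14.1 RPKM for RelA in WT and RelBko). Its strongest signal lay 11590 bp upstream (92803731 to 92804094), in sequence annotated as intronic without a host gene, which cannot be an intron of the transcript the distance is measured from. This region had WT RelB at 103 and 62.6 RPKM, RelBko RelB at 5.34 and 3.66 RPKM, RelA at 57.6 and 51.6 RPKM, and 0.833 RPKM in the input.

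Among the promoters of the neutrophil attractants, that of Cxcl2 had the most RelB, below the promoters of Cxcl9 and Cxcl10. Against the Cxcl11 promoter it was higher at 1 h (27.3 against 18.7 RPKM) and lower at 0 h (15.8 against 24.9 RPKM). The Cxcl2 promoter region (91332623 to 91332999, 114 bp upstream), which covers the GGGAATTTCCC element, had WT RelB signal of 15.8 and 27.3 RPKM, RelBko RelB signal of 1.37 and 2.45 RPKM, RelA signal of 57.9 and 51.5 RPKM, and 2.41 RPKM in the input. The Cxcl1 promoter region (91319955 to 91320339, 124 bp upstream) had WT RelB signal of 4.74 and 14.9 RPKM, RelBko RelB signal of 1.04 and 1.47 RPKM, RelA signal of 26.6 and 27.5 RPKM, and 1.18 RPKM in the input. RelB in RelBko was at the input level at both promoters.

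The Cxcl3 promoter region (91214869 to 91215235, 75 bp upstream) had WT RelB signal of 4.12 and 4.70 RPKM, and RelA signal of 14.1 RPKM with and 9.10 RPKM without RelB. A region 2245 bp upstream (91212702 to 91213062), the lead region of Cxcl3 by mean signal, had more RelB, 14.1 and 15.1 RPKM, and less RelA, 10.1 and 7.63 RPKM. Cxcl5 had its strongest signal far from its weak promoter, at 17053 bp upstream (91171100 to 91171442) with RelB at 37.4 and 37.7 RPKM and RelA at 27.5 and 24.8 RPKM, and at 41137 bp upstream with RelB at 28.2 and 30.9 RPKM and RelA at 27.0 and 28.6 RPKM. The remaining 9 Cxcl5 regions other than the promoter ranged from 1.99 to 8.73 RPKM for RelB at 0 h and from 1.53 to 22.0 RPKM for RelA in WT.

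How loss of RelB affects RelA binding is the question in the title of the series, and the RelA libraries of both genotypes after LPS address it. Of 31 chemokine regions compared, 1 had RelA signal at least 2-fold higher in WT and 0 had it lower, against 4.94% higher and 1.3% lower among all 80885 compared regions. The other 30 lay within 2-fold, as did 75836 of all compared regions, so the chemokine regions were like regions in general in this count. At the lead regions the log2 ratio of WT to RelBko ran from -0.05 (Cxcl1) to 0.38 (Cxcl3). The median over the 31 regions was 0.15, with 23 above 0 and 8 below, and that over all compared regions was 0.06. With the libraries scaled on regions without enrichment, which moved the median of all compared regions by -0.11, the chemokine median was 0.02, with 17 above 0 and 14 below.

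The depth-scaled read ratio of WT to RelBko was 1.14 (95% interval 1.04 to 1.26) at the Cxcl16 lead region, 1.13 (0.990 to 1.28) at the Cxcl10 promoter, 1.06 (0.933 to 1.21) at the Cxcl9 promoter and 1.12 (0.970 to 1.28) at the region 11590 bp upstream of Cxcl11. It was 1.12 (0.980 to 1.29) at the Cxcl2 promoter and 0.965 (0.793 to 1.17) at the Cxcl1 promoter. The intervals of these 6 regions lay between 0.793 and 1.29, with only that of the Cxcl16 lead region above 1, and variation between cultures was not measured. The Cxcl3 promoter had a larger ratio, 1.55 (1.13 to 2.12), from 91 and 80 reads, and a Cxcl1 region 29145 bp upstream had 1.67 (1.01 to 2.77), from 38 and 31 reads.

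The called region lay 15703 bp upstream of the Cxcl16 TSS, in intergenic sequence (chromosome 11, 70288990 to 70289388). RelA signal there was 8.12 RPKM with RelB (57 reads) and 3.24 RPKM without it (31 reads), where the input had 0.570 RPKM (3 reads). The ratio of WT to RelBko was 2.50 (1.59 to 4.01), and its log2 value of 1.20 became 1.01, close to the 2-fold line, when libraries were scaled on regions without enrichment. WT RelB signal was 53.2 and 24.2 RPKM before and after LPS, and RelBko RelB signal was 2.87 and 1.67 RPKM. The next region, 22639 bp upstream, had RelA signal of 5.59 and 3.02 RPKM (WT, RelBko) and a ratio of 1.85 (1.07 to 3.24). The neighbouring lead region and the TSS region of the same gene had ratios of 1.14 and 0.848 (0.717 to 1.00), and neither they nor the region 22639 bp upstream passed the 2-fold rule. In the other direction the lowest log2 ratios were -0.28 in the intronic region 5281 bp upstream of Cxcl11 (19.0 and 23.2 RPKM), -0.23 at the Cxcl16 TSS and -0.23 at Cxcl5 58914 bp upstream.

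**Figure D2:**
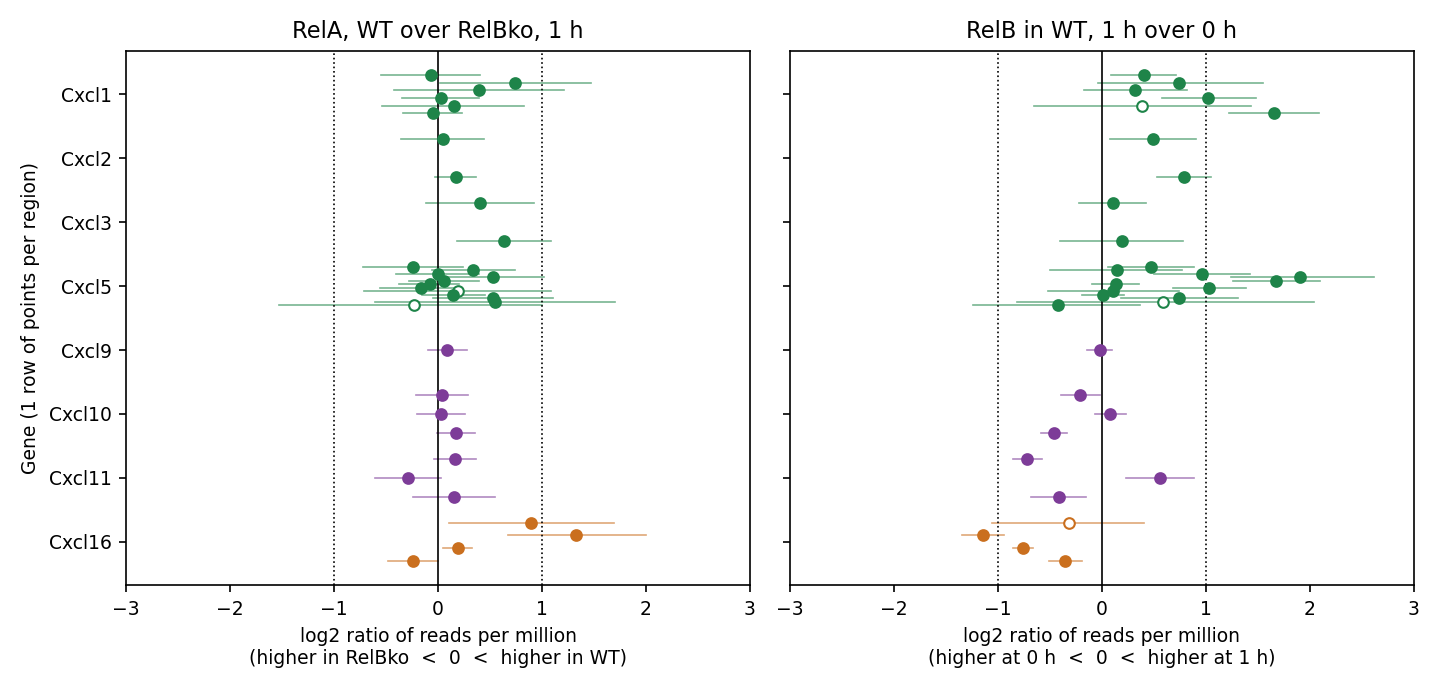
log2 of the depth-scaled read ratio at each of the 33 regions by gene, for RelA in WT over RelBko at 1 h (left) and RelB in WT at 1 h over 0 h (right); bars are exact 95% intervals (counting error only), open points were not compared, dotted lines mark 2-fold, and the calls in the text differ slightly by adding 0.5 RPKM to both values. RelA ratios are largest at the Cxcl16 regions 15703 and 22639 bp upstream. Intervals of smaller RelA ratios also lie above 0 at the Cxcl16 lead region, the Cxcl3 promoter and single regions of Cxcl1 and Cxcl5. RelB ratios lie mostly above 0 at Cxcl1, Cxcl2 and Cxcl5 and below 0 at Cxcl16.

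RelB signal in WT cells was compared between 1 h and 0 h. A log2 ratio above 0, meaning more RelB at 1 h, was found at 19 of 20 compared regions of Cxcl1, Cxcl2, Cxcl3 and Cxcl5 (median 0.46), beside 49116 of 80966 compared regions in all, and at 2 of 7 regions of the CXCR3 ligands (median -0.20) and 0 of 3 regions of Cxcl16 (median -0.76). The difference between these groups was not tested. Over all compared regions the median was 0.14, and scaling that median to 0 left 14 of 20, 1 of 7 and 0 of 3 above 0. By the 2-fold rule, LPS-treated WT cells had more RelB at 3 of 30 compared regions and less at 1, beside 11% and 1.68% of all 80966 compared regions.

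Among promoters only that of Cxcl1 was called higher, from 4.74 to 14.9 RPKM (64 and 163 reads), a ratio of 3.14 (2.34 to 4.26). The other called regions were at Cxcl5, 50313 bp upstream (1.99 to 7.47 RPKM, ratio 3.75, 2.36 to 6.15) and 43448 bp upstream (5.64 to 18.0 RPKM, ratio 3.19, 2.40 to 4.29). The Cxcl2 promoter had a ratio of 1.73 (1.44 to 2.08), under the 2-fold line. Cxcl5 at 40258 bp upstream (8.73 and 17.8 RPKM), Cxcl1 at 14980 bp upstream (5.65 and 11.5 RPKM) and Cxcl5 at 52829 bp upstream (5.55 and 10.8 RPKM) also had log2 ratios of 0.90 to 0.99. The Cxcl3 promoter, which holds the same GGGAATTTCCC element as Cxcl1 and Cxcl2, had a ratio of 1.14 (0.757 to 1.71), an interval that includes 1. Whether the element bears on these ratios was not tested.

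The region called lower was the same Cxcl16 region 15703 bp upstream, from 53.2 to 24.2 RPKM, a ratio of 0.454 (0.394 to 0.522). The Cxcl16 lead region had a ratio of 0.590 (0.553 to 0.630) and the Cxcl16 TSS 0.783 (0.701 to 0.875). The region 11590 bp upstream of Cxcl11 had 0.608 (0.553 to 0.669), the Cxcl10 promoter 0.727 (0.667 to 0.792) and the Cxcl11 promoter 0.750 (0.624 to 0.901). The Cxcl9 promoter, at 0.986 (0.907 to 1.07), and the Cxcl10 region 814 bp upstream, at 1.06 (0.952 to 1.17), had intervals that include 1.

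RelA and RelB were set side by side in WT cells at 1 h. The antibodies differ, so a ratio of 1 has no absolute meaning. Counts above or below such a line depend on where it is set and are read only beside those of all compared regions. RelA was at least 2-fold above RelB at 4 of 33 regions and at least 2-fold below it at 1, against 7.45% and 7.21% of all 85014 compared regions. All 4 belonged to the neutrophil attractants, which hold 22 of the 33 regions. Among the 4 were the Cxcl3 promoter (14.1 RPKM for RelA, 4.70 RPKM for RelB, ratio 3.00, 2.10 to 4.34) and the Cxcl2 promoter (57.9 and 27.3 RPKM, ratio 2.12, 1.81 to 2.47). The others were Cxcl5 at 56236 bp upstream (17.4 and 4.30 RPKM, ratio 4.04, 2.80 to 5.92) and Cxcl1 at 9462 bp upstream (5.89 and 1.87 RPKM, ratio 3.14, 1.73 to 5.89). The Cxcl1 promoter had a ratio of 1.78 (1.44 to 2.22).

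At the CXCR3 ligands, 6 of 7 regions had a log2 ratio below 0, as had 50752 of the 85014 regions compared in all, with ratios of 0.676 (0.601 to 0.758) at the Cxcl9 promoter and 0.855 (0.761 to 0.961) at the Cxcl10 promoter. Their median log2 ratio was -0.22, beside -0.16 over all compared regions and 0.45 over the 22 regions of the neutrophil attractants. With the median of all compared regions scaled to 0 (a shift of 0.16), 4 of 7 were below 0. Under this scaling 6 of the 33 regions were called higher for RelA, against 9.76% of all compared regions. Of these 6, 5 were among the 22 regions of the neutrophil attractants and 1 was of Cxcl16. The region with RelA lowest relative to RelB was again Cxcl16 at 15703 bp upstream, with a ratio of 0.336 (0.248 to 0.449). This ratio and the RelA ratio between genotypes share the WT RelA library, so they are not independent of each other.

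**Figure D3:**
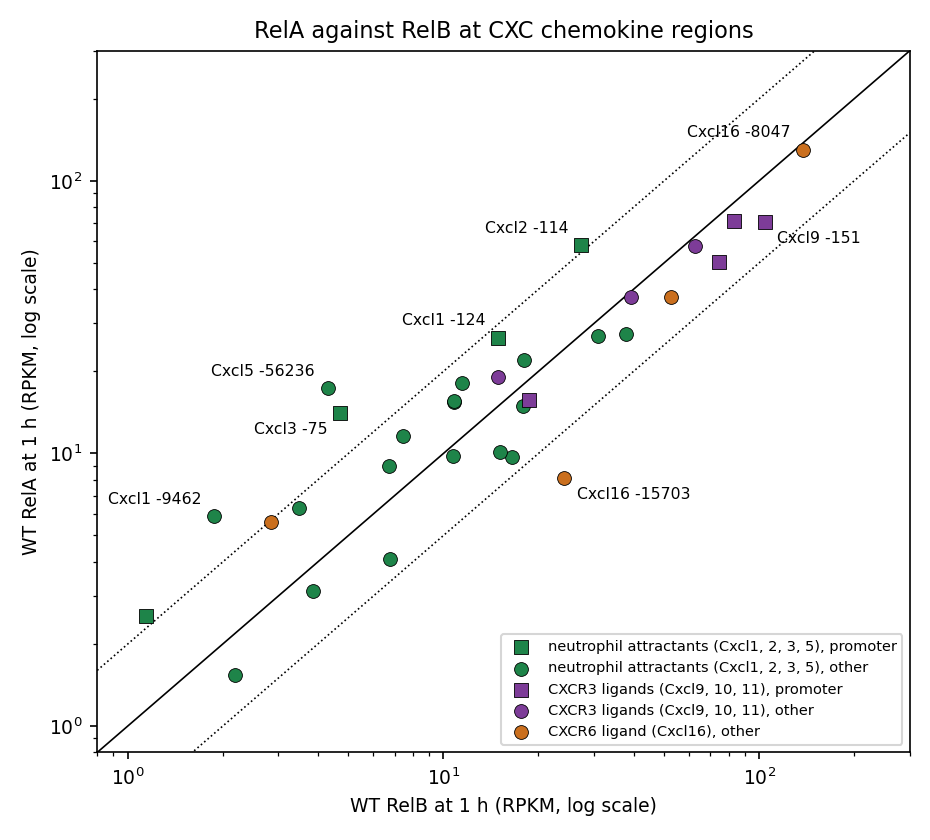
RelA against RelB signal in WT at 1 h (RPKM, log scales) at the 33 regions, coloured by chemokine group, squares for promoter regions; the solid line marks equal RPKM and the dotted lines 2-fold. Promoters of Cxcl1, Cxcl2 and Cxcl3 lie above the line, the Cxcl9 promoter below it, and the Cxcl16 region 15703 bp upstream is the 1 point below the lower dotted line.

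RelB ChIP in WT was compared with RelBko to see how much of the signal needed the Relb gene. At 1 h all 30 compared chemokine regions were at least 2-fold higher in WT and 0 lower, against 95.9% and 0.128% of all 76583 compared regions. At 0 h 28 of 29 were higher and 0 lower, against 86% and 0.504% of 71649, so the counts lie near those of regions in general. Most regions were compared because WT was enriched, which by itself makes WT higher. All 30 compared regions at 1 h and all 29 at 0 h had a log2 ratio above 0. Both comparisons were also scaled to a median ratio of 1 over all compared regions (shifts of -2.47 and -1.85). This scaling takes out the general difference between WT and RelBko, so its calls set a region only against the median region. At 1 h, 10 of 30 were then higher and 2 lower, against 17.7% and 13.7% of all compared regions. At 0 h, 12 of 29 were higher and 1 lower, against 15.3% and 9.84%.

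The size of the ratio differed among the genes. At 1 h the WT signal was 23.8 times the RelBko signal at the Cxcl16 lead region (17.3 to 33.7), 20.8 times at the Cxcl9 promoter (14.7 to 30.4) and 14.7 times at the Cxcl10 promoter (10.7 to 20.8). It was 11.2 times at the Cxcl2 promoter (6.94 to 19.1), 10.2 times at the Cxcl1 promoter (5.53 to 20.8) and 3.73 times at the Cxcl3 promoter (1.82 to 8.65). At 0 h the ratios were 19.1 (15.2 to 24.4) at Cxcl16, 17.4 (12.5 to 24.9) at Cxcl9, 13.6 (10.3 to 18.3) at Cxcl10, 11.6 (5.98 to 25.7) at Cxcl2, 4.56 (2.09 to 11.8) at Cxcl1 and 3.78 (1.71 to 9.84) at the Cxcl3 promoter. Median log2 ratios at 1 h were 2.88 for the neutrophil attractants, 3.92 for the CXCR3 ligands and 3.51 for Cxcl16, beside 2.47 over all compared regions. RelBko signal at 1 h was not enriched over input at the Cxcl1, Cxcl2 and Cxcl3 promoters (1.47, 2.45 and 1.26 RPKM over 1.18, 2.41 and 0.826 RPKM). It was enriched at the Cxcl9 and Cxcl10 promoters (5.01 and 5.65 RPKM over 2.24 and 1.29 RPKM). The smaller ratios are therefore limited by the WT level and do not rank how far signal needed the Relb gene.

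Some signal of the RelB antibody was present without the Relb gene. In RelBko, 10 of 33 chemokine regions were enriched over input at 0 h and 4 at 1 h (24.1% and 6.36% of all regions), the 4 being the Cxcl9 promoter, the Cxcl10 promoter, the region 11590 bp upstream of Cxcl11 and the Cxcl16 TSS. The Cxcl16 lead region, at 5.80 RPKM over an input of 2.86 RPKM, narrowly missed this rule at 1 h. Between 0 h and 1 h in RelBko, 0 of 10 compared regions were higher and 3 lower, against 0.863% and 44.1% of all 23402 compared regions. The 3 were the Cxcl16 lead region (12.3 to 5.80 RPKM), Cxcl10 at 4880 bp upstream (5.02 to 1.74 RPKM, from 31 and 12 reads) and Cxcl5 at 17053 bp upstream (5.67 to 2.54 RPKM, from 34 and 17 reads). With a median ratio of 1 none of the 3 was called, and the median of the 10 regions turned from -0.64 to 0.29. All 10 were enriched at 0 h, which by itself favours lower values at 1 h. Without the filter on low values, 15 of the 33 regions were above 0 and 18 below, with a median of -0.11. Over all regions the median was then -0.43.

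Signal along Cxcl16 and Cxcl5 shows how regions of 1 gene differed. At Cxcl16, RelB was higher at 0 h than at 1 h at all 4 regions. The farthest of them (3.54 and 2.85 RPKM) was not enriched for RelB. RelA in RelBko left the level of RelA in WT at 15703 bp upstream. At Cxcl5, RelB at 0 h lay under RelB at 1 h at 10 of the 11 compared regions, among them the 3 between 52829 and 43448 bp upstream. Over the 33 regions, log2 RPKM of RelA in WT and RelBko had a Pearson correlation of 0.98, RelB at 0 h and 1 h of 0.95, and RelA and RelB at 1 h of 0.89, beside 0.94, 0.91 and 0.88 over all regions; regions of 1 gene share libraries and are not replicates.

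**Figure D4:**
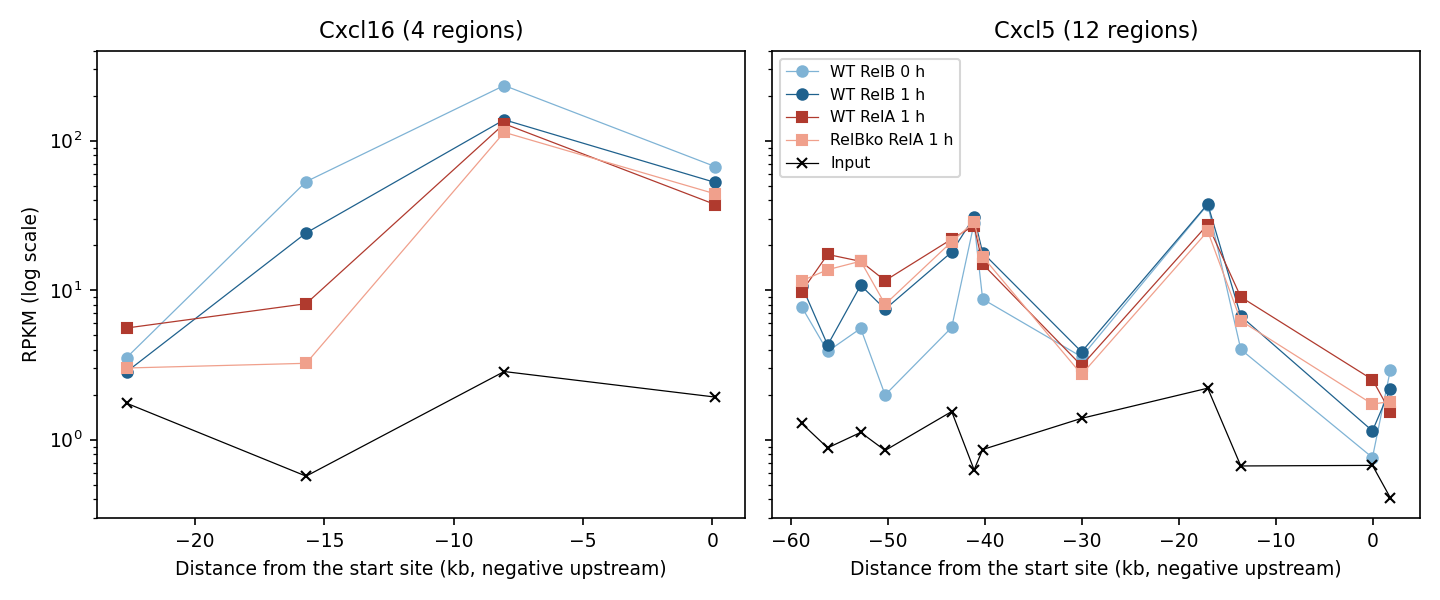
RPKM (log scale) at each region of Cxcl16 (left) and Cxcl5 (right) against distance from the TSS in kb; markers are regions in 1 library each, and the lines join them only to guide the eye. At Cxcl16 RelA in RelBko is lower than in WT at the 2 regions farthest upstream (3.24 against 8.12 RPKM and 3.02 against 5.59 RPKM), and at Cxcl5 the promoter has the lowest RelB values of the 12 regions.

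The lists of other CXC ligands, CXC receptors and proteases that cut or shed CXC chemokines held 18 genes, of which 15 had a region; Ppbp, Cxcl13 and Cxcl14 had none. At the lead regions of these 15 genes, RelA was called higher in 0 and lower in 0 between WT and RelBko (median log2 0.11). Of all compared regions, 4.94% and 1.3% were. RelB in WT between 1 h and 0 h was called at 0 and 0 of 13 compared, beside 11% and 1.68%. The 3 of highest mean signal encode receptors. Cxcr5, the receptor for the B cell chemokine Cxcl13, had RelB signal of 72.4 and 72.5 RPKM at 0 h and 1 h and RelA signal of 54.4 and 63.3 RPKM in WT and RelBko. Cxcr4, the receptor for Cxcl12, had RelB signal of 85.9 and 47.5 RPKM and RelA signal of 26.2 and 24.1 RPKM. Cxcr2, the receptor of the neutrophil attractants, had RelB signal of 60.6 and 48.8 RPKM and RelA signal of 33.9 and 31.1 RPKM.

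Cxcr6, the receptor for Cxcl16, had RelB signal of 34.5 and 39.4 RPKM and RelA signal of 22.4 and 24.8 RPKM, and Cxcr3 had RelB signal of 22.8 and 34.8 RPKM and RelA signal of 20.9 and 15.1 RPKM; both were named after their values were seen. RelA was at least 2-fold below RelB at Dpp4, whose product trims Cxcl10 (17.1 against 38.2 RPKM), and at least 2-fold above it at Cxcl15, a lung chemokine (2.08 against 0.536 RPKM). RelB was higher in WT than in RelBko at 13 of 13 compared genes at 1 h and 12 of 12 at 0 h. Of all compared regions, 95.9% and 86% were higher. In RelBko, RelB was lower at 1 h at 3 of 5 compared genes, Cxcr3 (2.82 to 1.12 RPKM), Cxcr5 (9.53 to 4.50 RPKM) and Dpp4 (5.20 to 1.89 RPKM). The share lower among all compared regions was 44.1%.

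Among the lead regions of 18214 genes, those closest to each chemokine in log2 RPKM over the 6 ChIP libraries (Euclidean distance) were Tut1, Acod1 and Hdgf for Cxcl1 and Mir3095, Irgq and Il10rb for Cxcl2. Acod1, which encodes the itaconate-producing enzyme of activated myeloid cells, had at its promoter RelB signal of 7.24 and 16.9 RPKM and RelA signal of 26.5 and 27.6 RPKM, at a distance of 0.61 from Cxcl1. The nearest genes to Cxcl9 were Snn, Gm11110 and Ap1b1, to Cxcl10 Bcas1, Qpct and Btg1, and to Cxcl16 Rbpj, Cyp11a1 and E230013L22Rik. For Cxcl3, Cxcl5 and Cxcl11 they were E330011O21Rik, Dpy19l3 and 1600020E01Rik. With 6 libraries and many genes, close neighbours exist for most patterns, and nothing is read from them about shared function.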

How the data were processed

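Chromatin immunoprecipitation sequencing (ChIP-seq) of RelA and RelB was deposited for 6 libraries of mouse bone marrow-derived dendritic cells, with 1 input library. Per the file headers, the authors deposited RPKM values (reads scaled to region length and library size) for each library over 93611 regions. Build mm9 and the tools bedtools, HISAT2 and HOMER are named in the submitters' processing notes. Which tool did what, in which version, and by what rule regions were picked is not given in the sources used here. Per the file headers, another deposited column (a different unit, bp) gives each region's distance to a transcription start site (TSS).

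Every RPKM value times its region's length (end minus start) was a whole multiple of 1 read (100% of values within 0.01 read), so reads were recovered. No value lay under 1 read, so a read may have been added to each count, and an alternative took 1 read off. Ratios were computed as log2 of RPKM plus 0.5. A region was called enriched at 2 RPKM or more and 2-fold or more over input (0.5 RPKM added to both), compared when enriched in at least 1 of both libraries, and called higher or lower at 2-fold or more. Each comparison has 1 library per group, so no test across conditions exists and no p-value is given. Intervals are exact 95% intervals (Clopper-Pearson for ratios, Poisson for levels) and cover counting error alone: without molecular identifiers, reads are not independent molecules. Coordinates of regions are in mm9 and count from 1, with deposited starts read as BED starts; those of the printed promoters are in GRCm38.p6.

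The lead region of a gene has the highest mean RPKM over the 6 ChIP libraries. The genes named are the 8 members, in each comparison up to 5 other member regions with the largest ratios in each direction, and of the related genes the 3 of highest mean RPKM and any called. Members, lists and tests were chosen with earlier results of these data known. Calculations used Python 3.11.15, pandas 2.3.3, numpy 2.4.6 and scipy 1.17.1, and the calculation of ratios, calls and intervals was tested on simulated data.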

Additional observations from a re-analysis of the deposited data

How the results depend on the processing

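Each group held 1 library, so leaving out a replicate was not possible. No paired analysis was possible because the groups have no replicates. Of 108 alternative values of the counts of regions called, 87 stayed within 1.5 times. Shares of all compared regions under the same setting are given in brackets. With calls at 1.5-fold, RelA was higher in WT at 4 regions in place of 1 (15.1%). RelB in WT was higher at 1 h at 9 in place of 3 (22.9%) and lower at 3 in place of 1 (8.38%). RelA was above RelB at 10 in place of 4 (15.3%) and below it at 3 in place of 1 (22.5%). RelB in RelBko was lower at 1 h at 6 in place of 3 (75.3%). Limiting regions to those within 10 kb of the TSS left 16 and dropped Cxcl16 at 15703 bp upstream. RelA was then higher in WT at 0 of 15 compared regions. RelB in WT was higher at 1 h at 1 and lower at 0 of 14, and RelA was below RelB at 0 of 16. RelB was higher in WT than in RelBko at 14 of 14 at both times, in place of 30 of 30 at 1 h and 28 of 29 at 0 h. Shares of all compared regions were not recomputed for this distance. With a median ratio of 1, RelB was higher in WT at 10 (17.7%) and lower at 2 regions (13.7%) at 1 h. At 0 h it was higher at 12 (15.3%) and lower at 1 (9.84%). In RelBko, RelB was then lower at 1 h at 0 regions (2.85%). The log2 ratio of RelB at the Cxcl1 promoter between WT and RelBko at 0 h turned from 1.77 to -0.085. A median ratio of 1 takes out the general difference between WT and RelBko. The negative value therefore places this promoter below the median region and does not mean less RelB in WT. A pseudocount of 0.1 gave 5 regions with RelB higher at 1 h in WT (12.8%). RelB in RelBko was lower at 1 h at 1 region with a pseudocount of 1 (35.3%). It was lower at 1 of 10 when scaled on regions without enrichment (29.3%). With the stricter filter of 4 RPKM and 4-fold it was lower at 0 of only 2 compared regions (61.7%), too few to set against the share. Where not given by the construction of the alternative, the cause was not tested. The call of RelA at Cxcl16, 15703 bp upstream, held under each alternative that keeps the region, with log2 ratios from 1.01 to 1.30. RelBko RelB values under 2 RPKM rest on few reads (3 at the lowest), so ratios to them are imprecise.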

Other observations

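The neighbourhood of the members on chromosome 5 held few regions assigned to other genes. Between the outermost regions of Cxcl5 and Cxcl2 (91129234 to 91332999) lay 22 member regions and 4 others, and between those of Cxcl9 and Cxcl11 (92757088 to 92804094) lay 7 member regions and 1 other. A pair lay at Pf4, which encodes platelet factor 4, with RelB signal in WT of 14.4 and 14.1 RPKM at 884 bp upstream and 12.3 and 9.74 RPKM at 36 bp downstream of the TSS at 0 h and 1 h. An intron of Art3 inside the Cxcl9 to Cxcl11 span had RelB signal of 5.18 RPKM at 0 h and 11.2 RPKM at 1 h, and RelA signal of 9.34 and 12.1 RPKM (WT, RelBko). A region 25334 bp downstream of the Cxcl15 TSS, chosen after its values were seen, had RelA signal of 3.87 RPKM with and 0.864 RPKM without RelB, beside 0.897 RPKM in the input, and WT RelB signal of 0.506 and 0.624 RPKM.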
